A study of Mus musculus with 24 samples.

Results

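Kupffer cells (KCs) are the resident macrophages of the liver. They sit in the sinusoids, where they take up bacteria, ageing erythrocytes, iron and lipoproteins from the portal blood, and in the mouse they are recognised by the C-type lectin Clec4f, the complement receptor Vsig4 and the phosphatidylserine receptor Timd4. Their identity is known to depend on signals of the neighbouring endothelial cells, stellate cells and hepatocytes, among them Notch ligands and members of the TGF-beta and BMP families, and on transcription factors such as LXR alpha (Nr1h3), Spic and Id3. The comparison asked how the transcriptome of KCs taken directly from the liver differed from that of KCs that had been kept in a liver culture.

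The libraries were selected by their group label, which gave 6 of the 24 RNA-seq libraries of the series. This choice was made with earlier results of these data known. KC ex vivo (n = 3) were cells from the livers of female C57BL/6J mice of 8 to 12 weeks, enriched on a density gradient and sorted as live CD45, CD11b, F4/80 and TIM-4 positive cells. KC in vitro (n = 3), also called KC-LCs, came from the same strain, sex and age: livers were digested and passed over the same kind of gradient with lysis of red cells, and the pellet was plated without a sort in a coated flask and kept for 14 days at 3% oxygen in a high-glucose medium with serum and M-CSF, and the cells were harvested without a sort. All mice were wild type, and no group carried a transgene or received a treatment. The design therefore differs in the sort, the oxygen, the medium and the time outside the animal at once, and these cannot be told apart. The other 18 libraries were the same sorted and cultured pairs of microglia (MG), peritoneal macrophages (PM) and alveolar macrophages (AM). MG and PM were cultured at the same oxygen and glucose as KCs, with IL-34 added for MG, and AM at atmospheric oxygen, without added glucose and with GM-CSF in place of M-CSF. The KC libraries held 29569486 to 42711453 counted reads and 16280 to 18200 genes with a read, and 3 reads correspond to 0.0705 to 0.0881 counts per 1000000 reads (CPM). CPM were scaled with the TMM factors of all 24 libraries, and values are given below in the order of replicates 1, 2 and 3. Intervals and limits on read numbers cover counting error only.

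The 3 marker genes separated the groups in every library. Clec4f (Ensembl gene on chr6:83644542-83656187, mm10) was read at 8170.0, 14128 and 13395 CPM ex vivo and 0.165, 0 and 0 CPM in vitro (log2 fold change 17.60 ± 1.19, edgeR adjusted p = 0.000182; positive values are higher ex vivo, and ± gives the SE). Vsig4 (chrX:96247203-96293438) stood at 1702, 2821 and 3543 CPM ex vivo and 0.141, 0.0242 and 0 CPM in vitro (log2 fold change 15.45 ± 0.94, edgeR adjusted p = 0.000169). Timd4 (chr11:46810800-46844332), whose protein was part of the sort gate, stood at 433, 1033 and 983 CPM ex vivo and 0.141, 0 and 0.251 CPM in vitro (log2 fold change 12.57 ± 0.94, edgeR adjusted p = 0.000269). Together the cultures held 7 reads of Clec4f, 7 of Vsig4 and 16 of Timd4. The sorted libraries thus carried the markers of their label, whereas the libraries labelled as KC-like cells from culture held these 3 markers at or near 0. Vsig4 and Timd4 were not particular to KCs. Sorted PM held them at 571 to 673 and 1203 to 1668 CPM, and cultured PM at 16.0 to 102 and 0.704 to 6.46 CPM. Clec4f reached at most 0.286 CPM in the sorted libraries of the other populations. Per kilobase of transcript, the mean levels in KC ex vivo were 4815 RPKM for Clec4f, 1812 for Vsig4 and 376 for Timd4. Within the sorted group KC ex vivo 1 was the lowest library for all 3 genes. In bulk RNA, fewer cells of a type and less RNA per cell cannot be told apart.

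General macrophage genes were read in both groups. Ptprc, the gene of CD45, and Adgre1, the gene of F4/80, were not called between the groups, with log2 fold changes of 0.58 ± 0.38 and 0.87 ± 0.53 (edgeR adjusted p = 0.276 and 0.244). Itgam, which encodes CD11b, was higher in vitro at 47.1, 105 and 78.6 CPM ex vivo and 586, 330.2 and 569.5 CPM in vitro (log2 fold change -2.70 ± 0.38, edgeR adjusted p = 0.00233). All of these proteins belonged to the sort gate. Csf1r, the M-CSF receptor, was higher ex vivo at 4182, 7029.9 and 10195 CPM ex vivo and 1979, 1837 and 2659.7 CPM in vitro (log2 fold change 1.71 ± 0.41, edgeR adjusted p = 0.0161). Its call was lost without KC ex vivo 3 (log2 fold change 1.40, edgeR adjusted p = 0.0458), without KC in vitro 1 (1.63, edgeR adjusted p = 0.052) and without KC in vitro 2 (1.59, edgeR adjusted p = 0.083). Id3 differed by -0.66 ± 0.28 (edgeR adjusted p = 0.109) and Itgax, the gene of CD11c, by 0.77 ± 0.72 (edgeR adjusted p = 0.441), and neither was called.

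Of 13629 genes tested with edgeR, 2005 were higher ex vivo and 1039 were higher in vitro at an adjusted p below 0.05 and an absolute log2 fold change above 1.5. Together they were 22.3% of the tested genes. The directions held 14.7% and 7.62% of the tested genes, and each count of list members below is to be read against these shares. Without any call rule, the 3 sorted and the 3 cultured libraries did not overlap for 53.7% of the tested genes. The genes higher in vitro were more often highly expressed: 504 of them (48.5%) had an average log2 CPM over 5, against 522 (26.0%) of the genes higher ex vivo. Of the genes higher ex vivo, 319 (15.9%) had no read in any cultured library. Of the genes higher in vitro, 93 (8.95%) had no read in any sorted library.

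Beyond the 3 markers, a list of 29 KC genes from general knowledge of this cell was almost uniformly higher ex vivo. The list was written with earlier results of these data known, so its counts are a description and no independent result. Of 29 tested members, 25 were higher ex vivo and 2 were higher in vitro, with a median log2 fold change of 7.11 against 0.01 over all tested genes. Cd5l, a secreted protein that protects macrophages and regulates lipid metabolism, fell from 3616, 6959 and 7494 CPM ex vivo to 91.7, 22 and 16.6 CPM in vitro (log2 fold change 7.11 ± 0.86, edgeR adjusted p = 0.00151). Marco, a scavenger receptor for bacteria, was read at 1522, 1211 and 1911 CPM ex vivo and 0, 0 and 0.327 CPM in vitro (log2 fold change 13.78 ± 1.22, edgeR adjusted p = 0.000495), so that only KC in vitro 3 held reads among the cultures. The lectin Fcna stood at 2429, 3249 and 3231 CPM ex vivo and 28.2, 9.01 and 17.1 CPM in vitro and remained detectable in every culture (log2 fold change 7.35 ± 0.55, edgeR adjusted p = 0.000269). Folr2, the folate receptor of tissue macrophages, was among the members with the smaller differences, at 983, 1165 and 1258 CPM ex vivo and 112, 103 and 38.4 CPM in vitro (log2 fold change 3.74 ± 0.45, edgeR adjusted p = 0.00148). The members therefore ranged from genes at the detection limit of the cultures to genes still read in each of them.

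**Figure D1:**
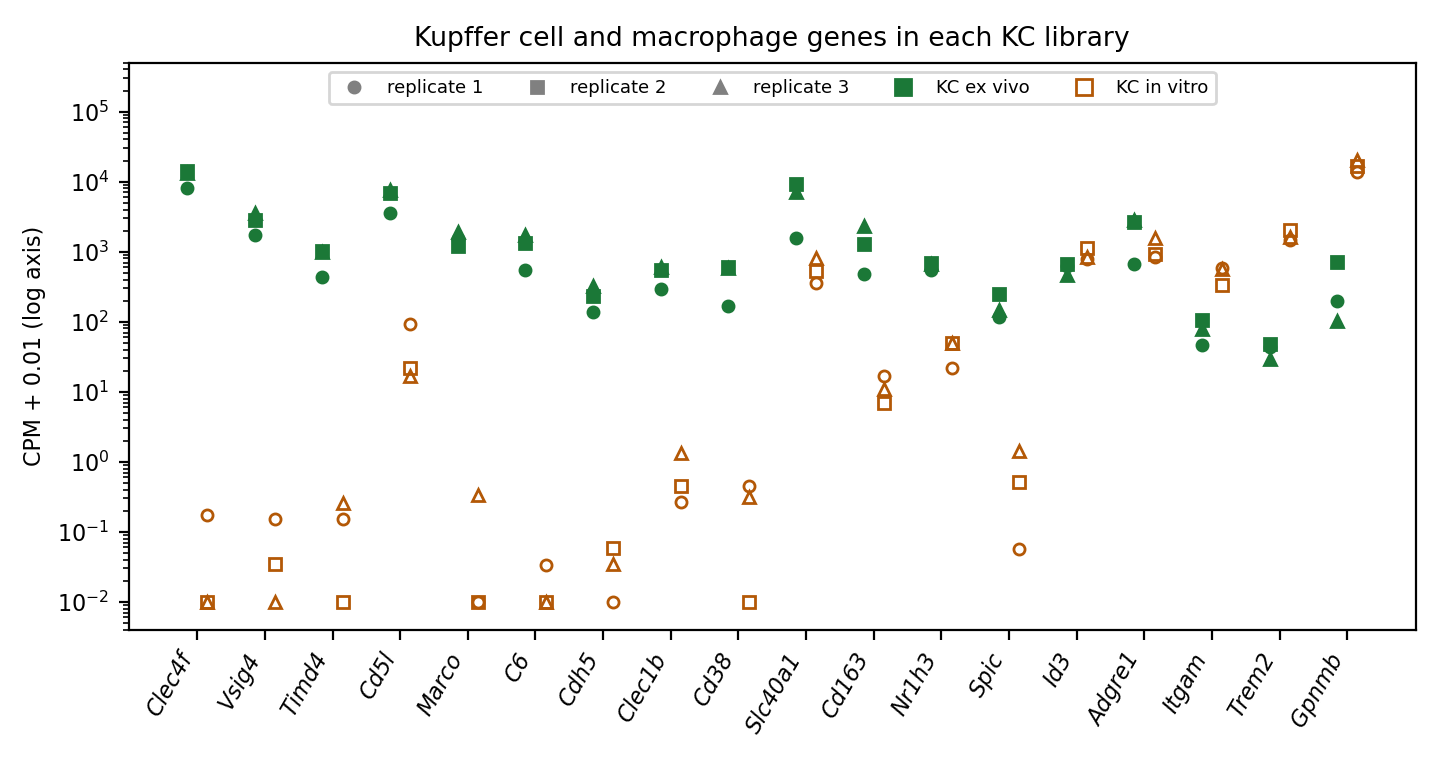
CPM + 0.01 on a log axis of 18 KC and macrophage genes in each of the 6 KC libraries; filled green symbols are KC ex vivo, open brown symbols KC in vitro, and the symbol shape gives the replicate. Clec4f, Vsig4, Timd4 and Marco lie at or below 0.327 CPM in every culture, Id3 and Adgre1 were not called, and Itgam, Trem2 and Gpnmb lie higher in vitro.

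Several of these genes encode surface and secreted proteins that are better known from other cells. Cdh5, the cadherin of endothelial junctions, had 139, 229 and 328 CPM ex vivo and 3 reads in all cultures together against 25048 reads ex vivo (edgeR adjusted p = 0.000109). Clec1b, the podoplanin receptor CLEC-2, had 294, 555 and 600.5 CPM ex vivo and 0.259, 0.436 and 1.33 CPM in vitro (log2 fold change 9.47 ± 0.76, edgeR adjusted p = 0.000311). C6, a terminal complement component, had 556, 1313 and 1756 CPM ex vivo, and 130515 reads there stood against 1 read in the cultures (edgeR adjusted p = 0.000114). All 3 genes were lowest in KC ex vivo 1, as Clec4f was. C4b, a component of the classical complement pathway (chr17:34728380-34743882), followed the same order with 395, 726 and 873 CPM ex vivo and had no read in the cultures, which makes it at least 27196-fold higher ex vivo when 3 reads over the cultured group are taken as the limit. C4b was not particular to KCs, as sorted PM held it at 5436 to 8423 CPM.

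Exceptions within the list were few. Ptger4, a receptor of prostaglandin E2, stood at 20.2, 19.3 and 21.1 CPM ex vivo and 26.1, 40.3 and 130.1 CPM in vitro (log2 fold change -1.70 ± 0.56, edgeR adjusted p = 0.0484) and was higher in vitro. Kctd12b was the other member higher in vitro (log2 fold change -1.77 ± 0.52, edgeR adjusted p = 0.0333). Both calls were lost without KC ex vivo 1 or 2 and without KC in vitro 2 or 3, and that of Ptger4 also without KC ex vivo 3, under limma-voom and under RLE scaling; without KC in vitro 3 the log2 fold changes were -0.76, edgeR adjusted p = 0.13 for Ptger4 and -1.40, edgeR adjusted p = 0.13 for Kctd12b. The Langerhans cell lectin Cd207 stood far apart among the cultures, at 210.3, 353 and 453 CPM ex vivo and 69.9, 11 and 0.402 CPM in vitro, and was not called (log2 fold change 3.64 ± 1.35, edgeR adjusted p = 0.0724). It was higher ex vivo without KC in vitro 1 (5.84, edgeR adjusted p = 0.0298) or KC in vitro 3 (3.03, edgeR adjusted p = 0.0428). Scarf1, a scavenger receptor, differed by 0.80 ± 0.39 (edgeR adjusted p = 0.147). In 26 of the 29 members KC ex vivo 1 was the lowest sorted library, whereas it was lowest for 5464 of the 13629 tested genes.

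The sorted libraries also held RNA of genes that define other liver cells. Lists of hepatocyte, endothelial, B, plasma, T and NK, dendritic, neutrophil and erythroid genes were higher ex vivo for 18 of 20, 6 of 12, 14 of 14, 3 of 4, 13 of 13, 8 of 10, 1 of 4 and 4 of 4 tested members. Many of these members passed the count filter through the sorted libraries alone. No read was held in the cultures by 12 of the 20 hepatocyte, 7 of the 14 B cell, 9 of the 13 T and NK cell and 3 of the 4 erythroid members. All 319 tested genes without a read in the cultures were called higher ex vivo, so these counts were in large part set by the filter. All 13 lists of other cells, monocytes included, together with immunoglobulin and T cell receptor segments held 93 of the 2005 genes higher ex vivo (4.64%) and 5 of the 1039 genes higher in vitro (0.481%). The platelet list gave 0 genes higher ex vivo and 1 of 3 higher in vitro, the list of stellate cells and fibroblasts gave 1 of 6 higher ex vivo, that of cholangiocytes and mesothelium 1 of 3, and that of basophils and eosinophils 1 of 1. The neutrophil list had 4 members higher ex vivo without KC ex vivo 3 and none without KC ex vivo 1, KC ex vivo 2 or KC in vitro 2. It had none under limma-voom and 4 without a filter or with all 24 libraries in 1 model. The endothelial and erythroid counts were 3 and 1 with a filter of 1 CPM in 3 libraries, which tests fewer genes. The basophil and eosinophil call was lost under limma-voom, with all 24 libraries in 1 model and without KC ex vivo 2, KC ex vivo 3, KC in vitro 1 or KC in vitro 2. What part such cells or free RNA have in other calls was not tested.

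Hepatocyte RNA was present in all 3 sorted libraries. The 24 hepatocyte genes summed to 435, 228 and 227 CPM ex vivo and 1.81, 2.21 and 0.905 CPM in vitro. Alb, serum albumin, led with 129.5, 41.4 and 73.6 CPM ex vivo and 2 reads in the cultures. Apoa1, the main protein of high-density lipoprotein, followed with 47.5, 28.2 and 17.9 CPM, and Serpina3k had 40.8, 14 and 14.2 CPM. In the other sorted populations the same list summed to at most 1.91 CPM in AM and 4.03 CPM in PM, and to 21.5 to 132 CPM in MG. The median log2 fold change of the tested members was 10.59, or 8.38 with the genes that had no read in the cultures set at their limit of 3 reads. No member was without a read ex vivo, and 15 of the 24 had none in the cultures. For 11 of the 20 tested members the highest sorted library was KC ex vivo 1.

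T and NK cell and dendritic cell genes were highest in KC ex vivo 1 among the sorted libraries. T and NK cell genes summed to 414, 62 and 46.3 CPM ex vivo and 1.29, 2.81 and 2.29 CPM in vitro, and all 13 tested members were highest in KC ex vivo 1. Nkg7, a granule protein of cytotoxic lymphocytes, reached 78.3, 5.45 and 4.79 CPM ex vivo, and Cd3e, a chain of the T cell receptor complex, 17.6, 2.64 and 3.26 CPM. Dendritic cell genes summed to 853, 105 and 134 CPM ex vivo and 5.06, 4.46 and 4.73 CPM in vitro, with the chemokine receptor Xcr1 at 207, 18.5 and 27.8 CPM ex vivo and 0.353, 0.267 and 0.955 CPM in vitro (log2 fold change 7.34 ± 1.20, edgeR adjusted p = 0.00417). Flt3, the receptor tyrosine kinase of dendritic cell precursors, had 199, 21 and 29.9 CPM ex vivo and no read in the cultures (at least 3442-fold higher ex vivo). Haemoglobin and other erythroid genes summed to 34.8, 12.9 and 3.91 CPM ex vivo and 0.376, 0.412 and 0.101 CPM in vitro. Plasma cell genes ranged from 90.2 to 280.3 CPM ex vivo and from 9.21 to 19.6 CPM in vitro, and neutrophil genes from 125.7 to 259.7 CPM ex vivo and from 24.9 to 101.1 CPM in vitro. The counts of Hba-a1 and Hba-a2 could be exchanged between these near-identical copies.

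In the B cell and endothelial lists 1 gene carried much of each sum. The B cell list summed to 420.3, 570.0 and 578 CPM ex vivo, of which Bank1, a B cell adaptor protein, gave 179.7, 385 and 315 CPM with its lowest value in KC ex vivo 1. Without Bank1 the sums were 241, 185 and 263 CPM ex vivo and 1.95, 8.17 and 11.5 CPM in vitro. Cd79a, part of the B cell receptor, had 25.7, 13.1 and 25.2 CPM ex vivo and 0, 0 and 0.0754 CPM in vitro (log2 fold change 9.59 ± 1.00, edgeR adjusted p = 0.000806). Ighm and Igkc, immunoglobulin constant regions, had 232, 46.5 and 93 and 38.6, 40.2 and 47.8 CPM ex vivo. Stab2, a hyaluronan receptor of sinusoidal endothelium, had 203, 345 and 368 CPM ex vivo and was again lowest in KC ex vivo 1 (log2 fold change 11.56 ± 0.76, edgeR adjusted p = 0.000182). Without Stab2 the endothelial list summed to 89.1, 28.2 and 18.8 CPM ex vivo and 55.9, 48.8 and 70.2 CPM in vitro, so its sums overlapped between the groups. Both trimmed lists were made after the values were seen and carry no test. Clec4g, a lectin of liver endothelium, was highest in KC ex vivo 1 with 14.5, 3.6 and 0.352 CPM and had no read in the cultures (at least 258-fold higher ex vivo), whereas Flt1, a VEGF receptor, was higher in vitro at 3.32, 1.83 and 2.88 CPM ex vivo and 9.81, 17.8 and 34 CPM in vitro (log2 fold change -2.94 ± 0.55, edgeR adjusted p = 0.00672).

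**Figure D2:**
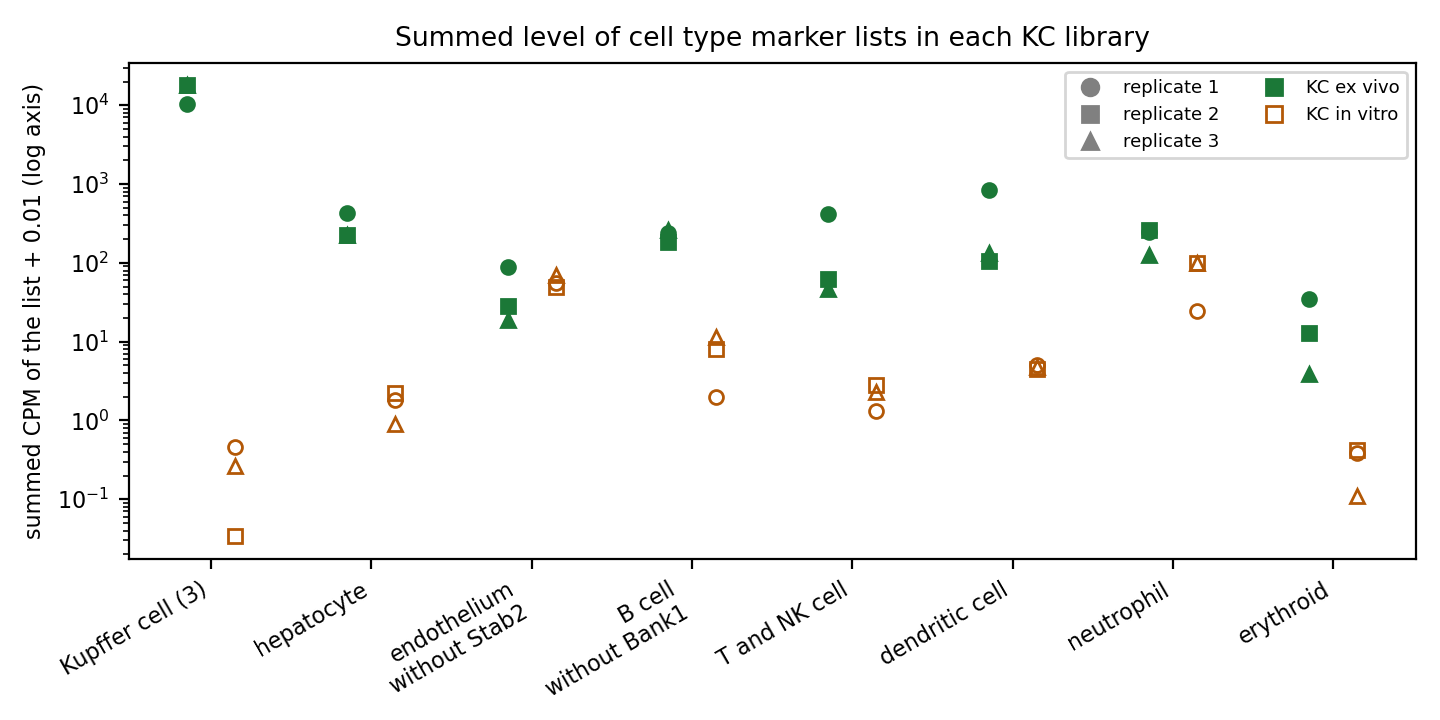
Summed CPM + 0.01 on a log axis of 8 lists of cell type marker genes in each KC library; filled green symbols are KC ex vivo, open brown symbols KC in vitro, and the symbol shape gives the replicate. KC ex vivo 1 is the lowest sorted library for the 3 KC markers (10305 CPM) and the highest for T and NK cell (414 CPM) and dendritic cell (853 CPM) genes; the endothelial sums without Stab2 overlap between the groups.

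Transcription factors of KCs did not move together. Of 31 tested regulators, 6 were higher ex vivo and 5 in vitro. Nr1h3, which encodes LXR alpha, was read at 541, 693 and 675 CPM ex vivo and 21.8, 50.3 and 49.2 CPM in vitro (log2 fold change 3.97 ± 0.39, edgeR adjusted p = 0.000675). Its partner Rxra stood at 262, 398 and 610.4 CPM ex vivo and 21.7, 71.4 and 79.5 CPM in vitro (log2 fold change 2.87 ± 0.54, edgeR adjusted p = 0.00686). Spic, a factor of heme-handling macrophages, differed more, with 117, 249 and 146 CPM ex vivo and 0.047, 0.509 and 1.43 CPM in vitro (log2 fold change 8.00 ± 0.99, edgeR adjusted p = 0.0016). The macrophage factor Spi1 and the factor Maf were not called, with log2 fold changes of 0.56 ± 0.27 and 0.84 ± 0.26 (edgeR adjusted p = 0.14 and 0.0428). The factors higher in vitro included Atf3, a stress-induced factor, at 79.9, 36.8 and 27.1 CPM ex vivo and 333, 796 and 1164 CPM in vitro (log2 fold change -3.99 ± 0.61, edgeR adjusted p = 0.00336). Bhlhe41 stood at 0.354, 3.58 and 0.441 CPM ex vivo and 34.4, 59.4 and 43.9 CPM in vitro (log2 fold change -4.99 ± 0.92, edgeR adjusted p = 0.00629). Id1, a relative of Id3, was higher in vitro (log2 fold change -1.87 ± 0.31, edgeR adjusted p = 0.00451). The regulators higher in vitro were 3 without KC ex vivo 2, KC ex vivo 3 or KC in vitro 1.

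Receptors and targets of the niche signals were mostly higher ex vivo where they were called, with 7 of 21 tested genes in that direction and 1 in the other. Acvrl1, the ALK1 receptor of BMP ligands, stood at 159, 150.4 and 140.0 CPM ex vivo and 22.9, 44.6 and 53.4 CPM in vitro (log2 fold change 1.89 ± 0.33, edgeR adjusted p = 0.00538). Its co-receptor endoglin, Eng, was the gene higher in vitro at 12, 4.99 and 8.25 CPM ex vivo and 25.4, 30.8 and 40.2 CPM in vitro (log2 fold change -1.93 ± 0.40, edgeR adjusted p = 0.00912). The Notch target Hey1 had 6.56, 11 and 7.08 CPM ex vivo and 0.541, 1.38 and 1.01 CPM in vitro (log2 fold change 3.05 ± 0.60, edgeR adjusted p = 0.0079). The related target Hes1 was not called with all libraries and was called when KC in vitro 2 was left out (with all libraries log2 fold change 1.37 ± 0.38, edgeR adjusted p = 0.0276; without this library 1.62, edgeR adjusted p = 0.047). Notch1 and Notch2 were higher ex vivo, with log2 fold changes of 1.79 ± 0.48 and 1.74 ± 0.42 (edgeR adjusted p = 0.0244 and 0.017), and both were not called without KC in vitro 1 or 2 or without 1 of the sorted libraries. Without KC ex vivo 3, Notch1 had a log2 fold change of 1.34, edgeR adjusted p = 0.0766. Without KC ex vivo 1, Notch2 had 1.45, edgeR adjusted p = 0.033, below the fold threshold.

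The clearance functions of KCs split between receptors that were higher ex vivo and others that were higher in vitro. Of 29 tested scavenger and efferocytosis genes, 12 were higher ex vivo and 6 in vitro. Cd163, the receptor for haemoglobin bound to haptoglobin, stood at 477, 1308 and 2352 CPM ex vivo and 16.7, 6.93 and 11 CPM in vitro (log2 fold change 6.89 ± 0.73, edgeR adjusted p = 0.000844). Mertk and Axl, receptor kinases for apoptotic cells, were higher ex vivo by 3.07 ± 0.56 and 2.89 ± 0.44 on the log2 scale (edgeR adjusted p = 0.00612 and 0.00327), while Gas6, which encodes their ligand, was higher in vitro at 32.4, 33.7 and 13.5 CPM ex vivo and 1829, 1729 and 1423 CPM in vitro (log2 fold change -5.97 ± 0.47, edgeR adjusted p = 0.000291). The C-type lectins Clec4d and Clec4e, receptors for microbial glycolipids, were higher in vitro, Clec4d with 6.26, 4.96 and 2.82 CPM ex vivo and 307, 525 and 437 CPM in vitro (log2 fold change -6.50 ± 0.44, edgeR adjusted p = 0.000182) and Clec4e with a log2 fold change of -5.23 ± 1.22 (edgeR adjusted p = 0.0147). Msr1 and Stab1 were not called, at -0.24 ± 0.33 and -0.44 ± 0.37 (edgeR adjusted p = 0.595 and 0.385). A ligand and its receptors thus stood on opposite sides of the comparison.

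Complement genes were higher ex vivo for 12 of 26 tested members and higher in vitro for 4. Cfp, properdin, had 2434, 3630.1 and 3607 CPM ex vivo and 544, 528 and 476 CPM in vitro (log2 fold change 2.63 ± 0.30, edgeR adjusted p = 0.00122). C2 had 41, 56.3 and 83.3 CPM ex vivo and 0.0941, 0.267 and 0.226 CPM in vitro (log2 fold change 8.24 ± 0.52, edgeR adjusted p = 0.000182). The receptors of the anaphylatoxins were among the 4 exceptions, C5ar1 with 121, 173 and 214 CPM ex vivo and 861, 1156 and 928 CPM in vitro (log2 fold change -2.55 ± 0.31, edgeR adjusted p = 0.00146) and C3ar1 with a log2 fold change of -2.33 ± 0.51 (edgeR adjusted p = 0.0115). The chains of C1q were abundant in both groups. C1qb and C1qc were not called (0.58 ± 0.48 and 1.13 ± 0.40, edgeR adjusted p = 0.38 and 0.063), and C1qa lost its call when any of the 6 libraries was left out (with all libraries log2 fold change 1.73 ± 0.56, edgeR adjusted p = 0.0474; without KC in vitro 1 1.26, edgeR adjusted p = 0.0348).

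Of the tested iron genes, 30.8% were higher ex vivo and 7.69% were higher in vitro. The latter share was near the 7.62% of all tested genes. Slc40a1, the iron exporter ferroportin, stood at 1544, 9278 and 7099.6 CPM ex vivo and 351, 533 and 809 CPM in vitro (log2 fold change 3.39 ± 0.69, edgeR adjusted p = 0.00867). It missed the threshold without KC in vitro 2 (log2 fold change 3.33, edgeR adjusted p = 0.0505). Fth1, the ferritin heavy chain that stores iron, was higher in vitro at 3810.3, 3543 and 3289 CPM ex vivo and 26646, 37329.5 and 31769 CPM in vitro (log2 fold change -3.18 ± 0.40, edgeR adjusted p = 0.00173). Steap3, a ferrireductase, was the other of the 2 iron genes higher in vitro (log2 fold change -2.93 ± 0.48, edgeR adjusted p = 0.00429), against 8 of 26 tested members higher ex vivo. Hmox1, which degrades heme, was not called, with 438, 683 and 1247 CPM ex vivo and 720.4, 362 and 364 CPM in vitro (log2 fold change 0.70 ± 0.45, edgeR adjusted p = 0.264). Without KC in vitro 2 the iron genes higher ex vivo were 5. Of the genes higher ex vivo, Hpx and Trf encode plasma proteins that hepatocytes are known to secrete, and Hpx had 17.3, 13.6 and 13.8 CPM ex vivo beside the hepatocyte sums given above.

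Lipid genes differed by pathway. Cholesterol synthesis was the list with the largest share of members higher in vitro among the lists of metabolism, with 15 of 25 tested members (60%), none higher ex vivo and a median log2 fold change of -1.92. Msmo1, a sterol oxidase of the pathway, stood at 30.5, 33.3 and 17.7 CPM ex vivo and 301, 231 and 259 CPM in vitro (log2 fold change -3.28 ± 0.31, edgeR adjusted p = 0.000588). Cyp51, the lanosterol demethylase, stood at 19.1, 23 and 18.1 CPM ex vivo and 144, 91.2 and 127 CPM in vitro (log2 fold change -2.59 ± 0.26, edgeR adjusted p = 0.000688). Hmgcs1, which acts at the entry of the pathway, was higher in vitro by a log2 fold change of -2.15 ± 0.44 (edgeR adjusted p = 0.00921). Insig1, a sterol-regulated inhibitor of the pathway, had 14.8, 17.5 and 19.2 CPM ex vivo and 94.4, 94.8 and 89.9 CPM in vitro (log2 fold change -2.45 ± 0.22, edgeR adjusted p = 0.000507). The regulator gene Srebf2 itself was not called (log2 fold change -0.25 ± 0.35, edgeR adjusted p = 0.617). LXR targets were higher ex vivo for 8 of 19 tested members and higher in vitro for 3, a count that was 1 without KC ex vivo 3, KC in vitro 2 or KC in vitro 3 and 2 without KC ex vivo 2. Scd1, the stearoyl-CoA desaturase, had 25.1, 63.5 and 96.5 CPM ex vivo and 1.74, 0.751 and 0.955 CPM in vitro (log2 fold change 5.73 ± 0.62, edgeR adjusted p = 0.000939). The apolipoprotein gene Apoc1 had 789.6, 588 and 567 CPM ex vivo and 0, 0.194 and 0.654 CPM in vitro (log2 fold change 11.16 ± 1.07, edgeR adjusted p = 0.000598). Apoe was uneven among the cultures, at 16016, 19737 and 20072 CPM ex vivo and 260.0, 13717 and 15442 CPM in vitro, and was not called (log2 fold change 0.91 ± 1.07, edgeR adjusted p = 0.544). Lpl, lipoprotein lipase, was higher in vitro at 1057, 1327 and 1308 CPM ex vivo and 3082, 3768 and 4126 CPM in vitro (log2 fold change -1.58 ± 0.29, edgeR adjusted p = 0.00632).

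Antigen presentation by MHC class II was higher ex vivo. Of 15 tested genes, 13 were called in this direction and none in the other, with a median log2 fold change of 3.28. Cd74, the invariant chain, stood at 19719, 8469.8 and 12228 CPM ex vivo and 543, 530.3 and 2425 CPM in vitro (log2 fold change 3.54 ± 0.74, edgeR adjusted p = 0.0098). H2-Aa stood at 4336, 1954 and 2508 CPM ex vivo and 146, 136 and 630.4 CPM in vitro (log2 fold change 3.28 ± 0.70, edgeR adjusted p = 0.0104). Ciita, the transactivator of class II genes, had 284, 60.6 and 68.6 CPM ex vivo and 0.705, 4.48 and 16.6 CPM in vitro (log2 fold change 4.26 ± 1.14, edgeR adjusted p = 0.0241) and lost its call without KC in vitro 2 (log2 fold change 3.97, edgeR adjusted p = 0.102). In all 3 genes KC ex vivo 1 was the highest sorted library, as it was for 11 of the 15 genes, and this was also the library with the highest sums of dendritic cell genes. Without KC ex vivo 1, Cd74 differed by 3.13, edgeR adjusted p = 0.0144, and H2-Aa by 2.85, edgeR adjusted p = 0.0172. Without KC in vitro 2 the number of class II genes higher ex vivo fell from 13 to 7. The part of dendritic cells in these values was not tested.

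Interferon-induced and MHC class I genes were higher ex vivo for 8 of 40 tested members and higher in vitro for none. Stat2, a transducer of interferon signals, stood at 335, 356 and 329 CPM ex vivo and 21.7, 36.9 and 48.2 CPM in vitro (log2 fold change 3.25 ± 0.33, edgeR adjusted p = 0.000767). Oas2, an antiviral sensor, had 266, 337 and 269.8 CPM ex vivo and 20.4, 43.3 and 43 CPM in vitro (log2 fold change 3.02 ± 0.35, edgeR adjusted p = 0.00122). H2-K1 and B2m, which form MHC class I molecules, were not called (0.33 ± 0.30 and -0.10 ± 0.34, edgeR adjusted p = 0.42 and 0.836). KC in vitro 1 was the lowest culture for all 40 members. Ifit1, for example, had 37.6, 36.4 and 33.6 CPM ex vivo and 13.7, 76.1 and 101 CPM in vitro and Zbp1 109, 104 and 85.6 CPM ex vivo and 4.44, 69.6 and 71.3 CPM in vitro, so for these genes the spread among the cultures exceeded the difference between the groups.

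**Figure D3:**
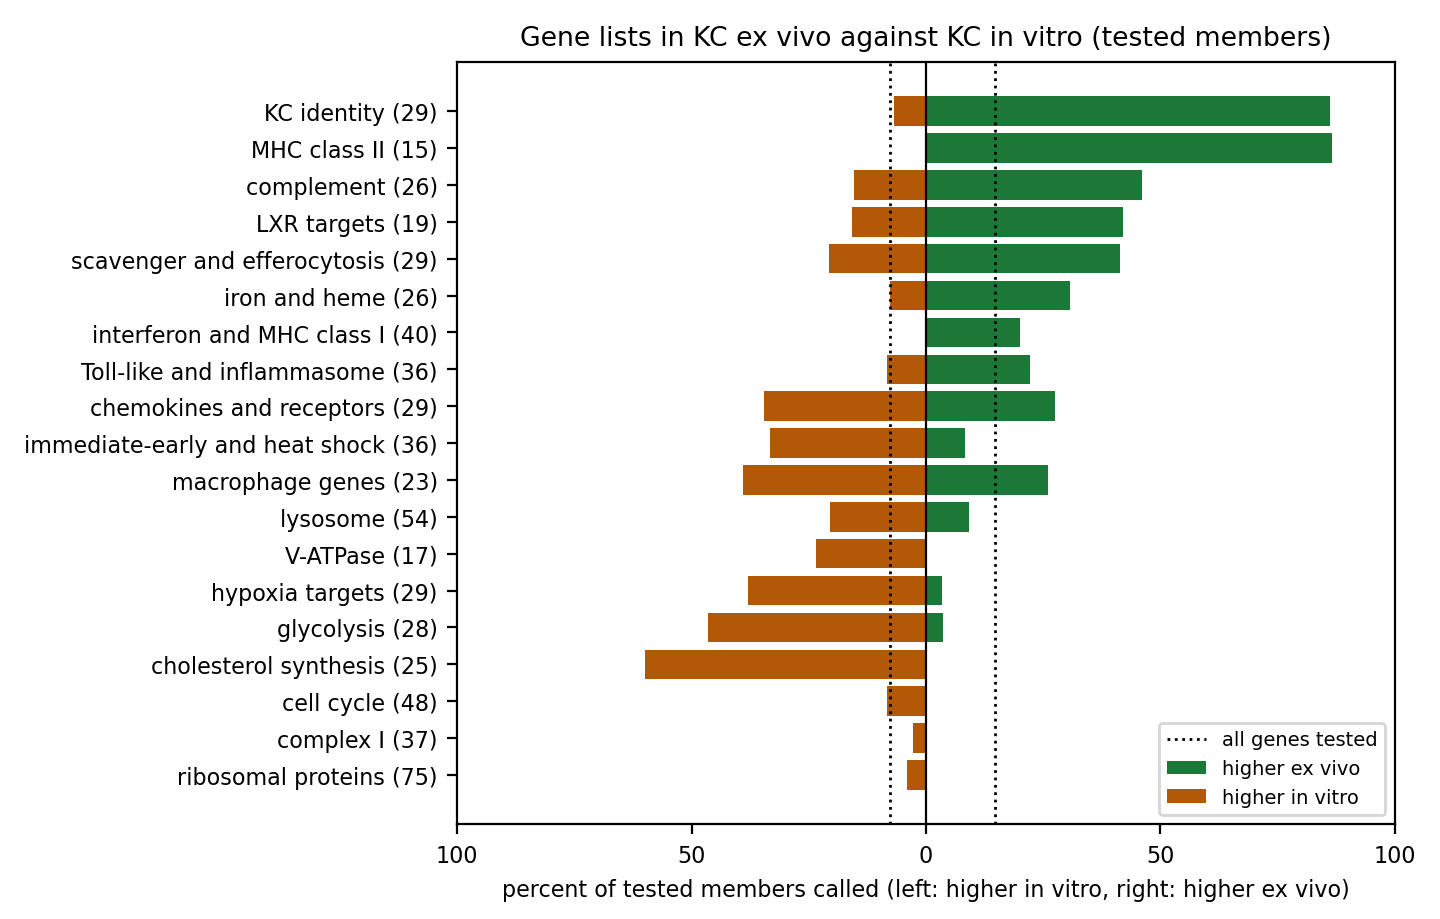
Percent of the tested members of 19 gene lists that were called higher in vitro (brown, to the left) or higher ex vivo (green, to the right); the number of tested members stands in brackets and dotted lines mark the shares over all tested genes, 7.62% and 14.7%. KC identity and MHC class II lie far to the right, cholesterol synthesis and glycolysis to the left.

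Genes of glycolysis and targets of hypoxia-inducible factors were higher in the cultures, which were kept at 3% oxygen in high glucose. Of 28 tested glycolysis genes 13 were higher in vitro and 1 was higher ex vivo, and of 29 tested hypoxia targets 11 were higher in vitro and 1 was higher ex vivo. Aldoc, an aldolase, had 8.28, 4.62 and 2.79 CPM ex vivo and 231, 150.0 and 174 CPM in vitro (log2 fold change -5.14 ± 0.47, edgeR adjusted p = 0.000533). Pkm and Ldha, the enzymes that form pyruvate and lactate, were higher in vitro by log2 fold changes of -2.35 ± 0.34 and -2.31 ± 0.40 (edgeR adjusted p = 0.00259 and 0.00526), and the lactate exporter Slc16a3 by -3.45 ± 0.43 (edgeR adjusted p = 0.00164). Hk2, a hexokinase, was the exception, at 102, 83.7 and 109 CPM ex vivo and 19.6, 11.5 and 27.7 CPM in vitro (log2 fold change 2.33 ± 0.34, edgeR adjusted p = 0.00288). Vegfa, the angiogenic growth factor, stood at 0, 0.861 and 0.881 CPM ex vivo and 126, 264 and 441 CPM in vitro (log2 fold change -8.91 ± 1.13, edgeR adjusted p = 0.00172). The mitophagy receptor Bnip3 had 4.52, 4.67 and 2.11 CPM ex vivo and 119, 47.2 and 40.5 CPM in vitro (log2 fold change -4.19 ± 0.55, edgeR adjusted p = 0.00191). The HIF prolyl hydroxylase Egln3 had 0.98, 0.0783 and 0.323 CPM ex vivo and 36, 21.6 and 17.2 CPM in vitro (log2 fold change -5.74 ± 0.88, edgeR adjusted p = 0.0033). Ak4, an adenylate kinase of mitochondria, had 22, 4.05 and 3.9 CPM in vitro and no read ex vivo (at least 370.4-fold higher in vitro, with 3 reads over the sorted group as the limit). Adm, adrenomedullin, was the hypoxia target higher ex vivo, at 13, 35.7 and 33.7 CPM ex vivo and 1.76, 0.0969 and 0.905 CPM in vitro (log2 fold change 4.88 ± 0.94, edgeR adjusted p = 0.00721). KC in vitro 1 was the highest culture for 20 of the 28 glycolysis genes, and Vegfa was lowest in it. Counts of Pgk1 and Pgam1 may be split with processed pseudogenes and are uncertain.

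**Figure D4:**
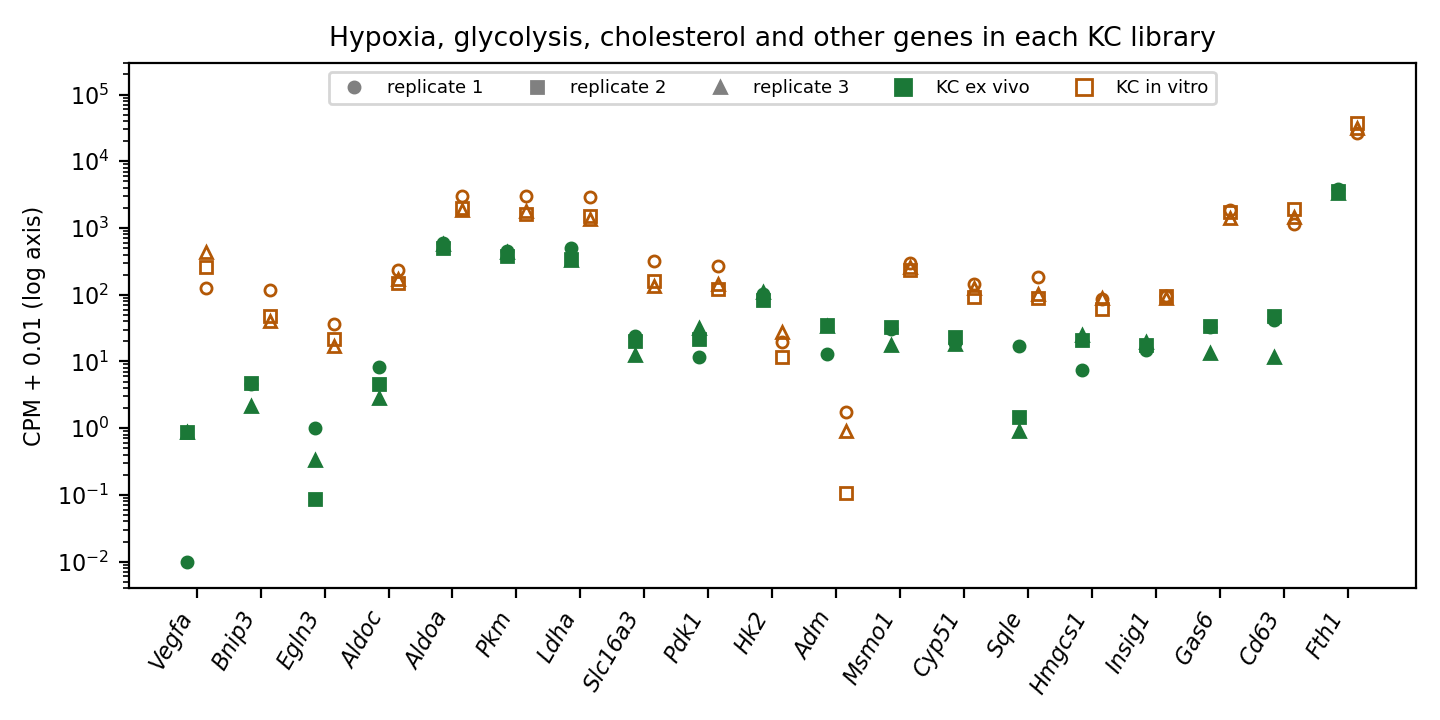
CPM + 0.01 on a log axis of 19 genes of hypoxia, glycolysis, cholesterol synthesis and other functions in each KC library; filled green symbols are KC ex vivo, open brown symbols KC in vitro, and the symbol shape gives the replicate. All but Hk2 and Adm lie higher in the 3 cultures than in the 3 sorted libraries, and KC ex vivo 1 holds no read of Vegfa.

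The promoters of these genes were searched for the short sequences that the 2 pathways are known to use. In windows of 300 bases around annotated starts (250 before and 50 after, RefSeq, GRCm38.p6, both strands), the core of the hypoxia response element, ACGTG, was present for 8 of the 9 hypoxia targets higher in vitro that had an entry (88.9%), for 9 of 13 such glycolysis genes (69.2%), for 29.2% of the tested genes with an entry and for 21.8% of all genes with one. The core of the sterol regulatory element, ACCCCAC, was present for 3 of 10 cholesterol genes higher in vitro (30%), for 7.76% of the tested genes and for 7.06% of all genes. The same 10 genes held ACGTG as often, in 3. The lysosomal E-box TCACGTG, also searched and itself holding ACGTG, was present in 3 of them, against 7.01% of the tested genes. Among all members with an entry, called or not, ACGTG was present for 72.0% of the hypoxia targets and 59.3% of the glycolysis genes, and ACCCCAC for 16.7% of the cholesterol genes. In the other lists searched, ACGTG was present for 54.5% of the subunits of the lysosomal proton pump and 39.1% of the lysosomal genes. The shares were 22.2% for cholesterol genes and 13.6% for KC identity genes. The hypoxia list was made of targets of hypoxia-inducible factors, so its share of ACGTG is no independent result. A match describes letters in this window and not a bound site. The 250 bases before the start of 4 genes higher in vitro are shown 5′ to 3′ on the strand of the gene, with the matches in capitals, to show how the cores sit in these promoters.
Bnip3 (chr7:138909507-138909756, minus strand), ACGTG on both strands overlapping in 1 palindrome, 108 bases before the start: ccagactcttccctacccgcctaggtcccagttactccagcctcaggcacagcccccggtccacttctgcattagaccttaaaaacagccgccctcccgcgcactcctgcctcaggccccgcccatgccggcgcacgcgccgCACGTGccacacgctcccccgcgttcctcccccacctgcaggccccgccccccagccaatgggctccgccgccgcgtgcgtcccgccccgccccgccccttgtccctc
Egln3 (chr12:54203875-54204124, minus strand), 1 match, 229 bases before the start: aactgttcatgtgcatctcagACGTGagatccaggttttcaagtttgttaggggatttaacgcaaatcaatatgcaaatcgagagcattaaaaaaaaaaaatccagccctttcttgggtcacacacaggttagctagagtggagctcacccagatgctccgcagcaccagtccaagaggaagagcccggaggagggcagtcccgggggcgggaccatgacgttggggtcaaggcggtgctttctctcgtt
Ankrd37 (chr8:45999851-46000100, minus strand), 2 matches, the first 241 and the last 6 bases before the start: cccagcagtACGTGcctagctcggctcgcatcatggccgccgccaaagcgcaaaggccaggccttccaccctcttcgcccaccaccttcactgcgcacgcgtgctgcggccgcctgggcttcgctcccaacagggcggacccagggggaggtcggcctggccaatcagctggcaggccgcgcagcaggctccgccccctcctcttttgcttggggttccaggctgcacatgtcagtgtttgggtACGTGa
Hmgcs1 (chr13:119690101-119690350, plus strand), ACCCCAC, 1 match, 135 bases before the start: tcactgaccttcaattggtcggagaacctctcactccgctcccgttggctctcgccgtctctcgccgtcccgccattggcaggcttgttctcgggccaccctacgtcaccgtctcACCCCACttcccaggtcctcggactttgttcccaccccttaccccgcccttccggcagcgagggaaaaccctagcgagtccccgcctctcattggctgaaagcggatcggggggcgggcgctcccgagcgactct
Ankrd37, an ankyrin repeat protein, had 1.23, 0 and 0.411 CPM ex vivo and 32.7, 24 and 17.7 CPM in vitro (log2 fold change -5.49 ± 1.16, edgeR adjusted p = 0.0101). Hmgcs1, HMG-CoA synthase, had 7.46, 21.3 and 25.2 CPM ex vivo and 87.6, 60.3 and 89.5 CPM in vitro.

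A list of general macrophage genes was called in both directions, with 9 of 23 tested genes higher in vitro and 6 higher ex vivo. Gpnmb, a glycoprotein of lysosomes, stood at 199, 723 and 101 CPM ex vivo and 13583, 16832 and 20516 CPM in vitro (log2 fold change -5.65 ± 0.83, edgeR adjusted p = 0.00289). Trem2, a receptor for lipids, stood at 43.9, 47.7 and 29.1 CPM ex vivo and 1454, 2048 and 1631 CPM in vitro (log2 fold change -5.42 ± 0.36, edgeR adjusted p = 0.000182). The tetraspanin Cd9 stood at 81.6, 89.1 and 24.9 CPM ex vivo and 1176, 1504 and 1079 CPM in vitro (log2 fold change -4.27 ± 0.53, edgeR adjusted p = 0.00161). Spp1, osteopontin, and Lgals3, galectin-3, had log2 fold changes of -3.35 ± 0.55 and -3.94 ± 0.41 (edgeR adjusted p = 0.00425 and 0.000787). The mannose receptor Mrc1 and the sialoadhesin Siglec1 were on the other side, with 3.08 ± 0.69 and 3.27 ± 0.63 (edgeR adjusted p = 0.0127 and 0.00747). Without KC in vitro 2 the list had 3 genes higher ex vivo.

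Lysosomal genes were called in both directions, 11 of 54 higher in vitro and 5 higher ex vivo. The tetraspanin Cd63 had 41.2, 47.6 and 11.6 CPM ex vivo and 1128, 1909 and 1437 CPM in vitro (log2 fold change -5.49 ± 0.61, edgeR adjusted p = 0.00109). Ctsd, cathepsin D, had 3594, 5998 and 5125 CPM ex vivo and 27752, 31039 and 32279 CPM in vitro (log2 fold change -2.64 ± 0.41, edgeR adjusted p = 0.00339). Ctsc, cathepsin C, went the other way at 1668, 6057 and 5733 CPM ex vivo and 328, 401 and 690.1 CPM in vitro (log2 fold change 3.23 ± 0.57, edgeR adjusted p = 0.0055). Acp5, the tartrate-resistant phosphatase, was also higher ex vivo, at 408, 526 and 602 CPM ex vivo and 2.42, 8.97 and 7.82 CPM in vitro (log2 fold change 6.31 ± 0.57, edgeR adjusted p = 0.000507). Of the 17 tested subunits of the proton pump that acidifies lysosomes, 4 were higher in vitro and none ex vivo, with a median of -1.14. Among proteases and osteoclast genes, 10 of 32 were higher in vitro and 4 ex vivo. Mmp12, the macrophage elastase, had 172, 549.8 and 102 CPM ex vivo and 3553, 5002 and 3255 CPM in vitro (log2 fold change -3.86 ± 0.67, edgeR adjusted p = 0.00514). Mmp9, gelatinase B, had 47.7, 41.2 and 63.4 CPM ex vivo and 0, 0 and 0.402 CPM in vitro (log2 fold change 8.56 ± 1.16, edgeR adjusted p = 0.0021). The lysosomal genes higher in vitro were 7 without KC ex vivo 1 or KC in vitro 2, those higher ex vivo were 3 without KC in vitro 1 or 2, and the proteases higher ex vivo were 2 without KC in vitro 2.

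Chemokines and cytokines differed gene by gene. Chemokine and receptor genes were higher in vitro for 10 and higher ex vivo for 8 of 29 tested members, and cytokine genes were called for 8 of 29 in each direction. Ccl9 and Ccl2, attractants of monocytes, were higher in vitro, Ccl9 at 38.2, 13.9 and 18.4 CPM ex vivo and 755, 825 and 528 CPM in vitro (log2 fold change -4.90 ± 0.49, edgeR adjusted p = 0.000688) and Ccl2 by -3.57 ± 0.33 (edgeR adjusted p = 0.000518). Ccl24, an eosinophil attractant, was higher ex vivo at 309, 229 and 248 CPM ex vivo and 0.118, 0.679 and 1.33 CPM in vitro (log2 fold change 8.53 ± 0.80, edgeR adjusted p = 0.000576). Cxcl13, the B cell attractant, had 254, 275 and 376 CPM ex vivo, and 32654 reads there stood against 1 read in the cultures (edgeR adjusted p = 5.60e-05). Il18bp, the inhibitor of interleukin 18, stood at 725, 924 and 1173 CPM ex vivo and 6.77, 15.1 and 30.9 CPM in vitro (log2 fold change 5.74 ± 0.62, edgeR adjusted p = 0.000936). Osm, oncostatin M, and Gdf15, a stress-induced factor, were higher in vitro (-5.30 ± 0.76 and -4.65 ± 0.71, edgeR adjusted p = 0.00264 and 0.0033). Without KC ex vivo 3 or KC in vitro 2 the cytokines higher ex vivo were 4, and without KC ex vivo 2 or KC in vitro 1 they were 5. Chemokine genes higher ex vivo were 5 without KC in vitro 1 or 2.

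Acute response genes were uneven among the cultures. Of 36 tested immediate-early and heat shock genes, 12 were higher in vitro and 3 higher ex vivo, and 29 of the 36 were highest in KC in vitro 3 among the cultures. Egr1, an early growth response factor, stood at 38.3, 17.2 and 29.9 CPM ex vivo and 97.9, 122 and 1684 CPM in vitro (log2 fold change -4.47 ± 1.15, edgeR adjusted p = 0.0212). Its call was lost without KC ex vivo 2 (log2 fold change -4.22, edgeR adjusted p = 0.0765) and without KC ex vivo 3 (-4.48, edgeR adjusted p = 0.0686). Tnf had 15.3, 13.5 and 7.43 CPM ex vivo and 39.2, 62.7 and 585 CPM in vitro (log2 fold change -4.24 ± 1.04, edgeR adjusted p = 0.0176) and lost its call without the same libraries (-4.33, edgeR adjusted p = 0.0611 and -3.96, edgeR adjusted p = 0.064). The list count of 12 fell to 7 without KC ex vivo 2 or KC ex vivo 3. The heat shock genes Hspa1a and Hspa1b, near-identical copies whose counts may be exchanged, were higher ex vivo, Hspa1b at 285, 308 and 146 CPM ex vivo and 1.27, 0.194 and 1.31 CPM in vitro (log2 fold change 8.06 ± 0.76, edgeR adjusted p = 0.00059). Dusp1, a phosphatase of stress kinases, was higher in vitro at 386, 299 and 151 CPM ex vivo and 737, 2103 and 3887 CPM in vitro (log2 fold change -3.01 ± 0.65, edgeR adjusted p = 0.0107).

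Sensors of microbes were higher ex vivo for 8 of 36 tested members and higher in vitro for 3, or 1 without KC in vitro 3. Tlr12, a Toll-like receptor of endosomes, had 156, 123 and 186 CPM ex vivo and no read in the cultures (at least 6329-fold higher ex vivo). Nod1, a cytosolic receptor of bacterial wall fragments, stood at 176, 285 and 318 CPM ex vivo and 7.97, 4.75 and 20.0 CPM in vitro (log2 fold change 4.57 ± 0.58, edgeR adjusted p = 0.00171). Tlr13, a receptor of bacterial ribosomal RNA, was higher in vitro at 70.6, 157 and 149.7 CPM ex vivo and 424, 384 and 574 CPM in vitro (log2 fold change -1.88 ± 0.35, edgeR adjusted p = 0.00665). Of the enzymes of prostanoids and leukotrienes 5 of 19 were higher ex vivo and 2 in vitro. Ptgs1, the constitutive cyclooxygenase, had 581, 1432 and 1539 CPM ex vivo and 93.5, 23.8 and 26.2 CPM in vitro (log2 fold change 4.62 ± 0.69, edgeR adjusted p = 0.0031). Hpgds, which makes prostaglandin D2, was higher in vitro at 37.3, 83.1 and 59.4 CPM ex vivo and 297, 279.5 and 289 CPM in vitro (log2 fold change -2.28 ± 0.31, edgeR adjusted p = 0.00221). Without KC ex vivo 3 the enzymes higher ex vivo were 2, without KC ex vivo 2 or KC in vitro 2 they were 3, and without KC ex vivo 1 those higher in vitro were 4. The latter were 1 without KC ex vivo 2, KC in vitro 1 or KC in vitro 2.

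Ribosomal and respiratory genes had few calls at a log2 fold change above 1.5. The share of cell cycle genes higher in vitro, 8.33%, was near the 7.62% of all tested genes. Cell cycle genes were higher in vitro for 4 of 48, ribosomal protein genes for 3 of 75, complex I subunits for 1 of 37 and subunits of complexes II to V for none of 39, and none of these lists had a member higher ex vivo. These counts rested on KC ex vivo 1, which was the highest sorted library for 73 of the 75 ribosomal and 35 of the 48 cell cycle genes. Without it the counts higher in vitro were 15 of 48, 27 of 75, 8 of 37 and 9 of 39. With any other library left out they were at most 5, 1, 2 and 2. With a fold change itself above 1.5 as the threshold, 21 of the 37 complex I genes and 11 of the 39 others were higher in vitro. The 3 sorted and 3 cultured libraries did not overlap for 29 and 28 of them, against 53.7% of all tested genes. Cell cycle genes higher in vitro were 9 under DESeq2 and 8 under limma-voom, and ribosomal genes were 8 under limma-voom. Mki67, which marks proliferating cells, was read at 152, 29.6 and 62 CPM ex vivo and 66.2, 14.2 and 23.4 CPM in vitro and was not called (log2 fold change 1.24 ± 0.72, edgeR adjusted p = 0.218). Pcna, the clamp of DNA polymerase, was higher in vitro at 28.8, 34.5 and 28 CPM ex vivo and 129, 138 and 106 CPM in vitro (log2 fold change -2.04 ± 0.23, edgeR adjusted p = 0.00108). Cdkn2c, a cell cycle inhibitor, was higher in vitro with 23.6, 10.4 and 13.4 CPM ex vivo and 113, 64.6 and 46.4 CPM in vitro (log2 fold change -2.24 ± 0.45, edgeR adjusted p = 0.00823). Without KC in vitro 2 the cell cycle genes higher in vitro were 2. KC in vitro 1 was the highest culture for 45 of the 48 cell cycle genes.

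**Figure D5:**
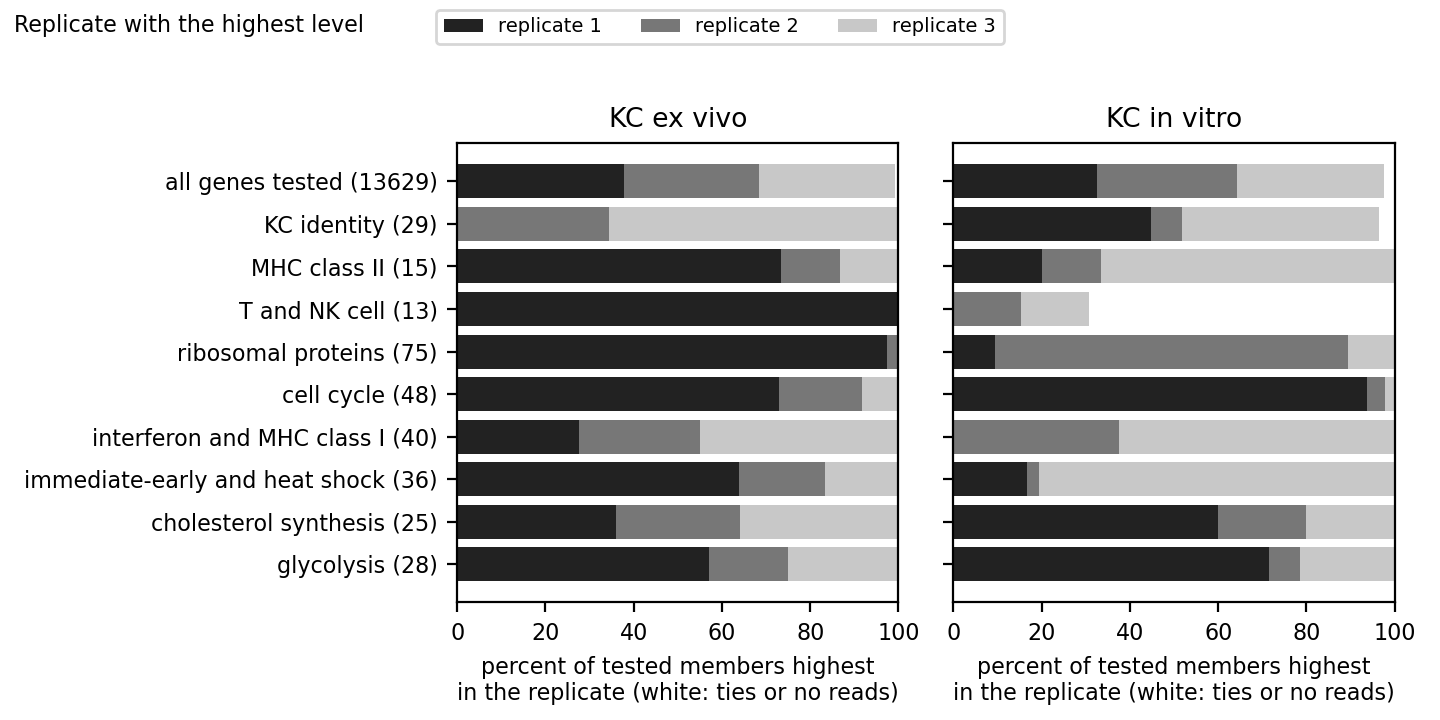
Percent of the tested members of 10 gene lists (all tested genes in the top row) for which each replicate was the highest of its group, at left among KC ex vivo and at right among KC in vitro; white space holds genes with ties or no reads. T and NK cell and ribosomal genes are highest in KC ex vivo 1, interferon and immediate-early genes are most often highest in KC in vitro 3, and cell cycle genes in KC in vitro 1.

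Antioxidant and metallothionein genes were higher in vitro for 7 of 29 tested members and higher ex vivo for none, among them the peroxiredoxin Prdx1 (log2 fold change -2.48 ± 0.31, edgeR adjusted p = 0.00164) and the metallothionein Mt1 (log2 fold change -2.30 ± 0.35, edgeR adjusted p = 0.00313). Amino acid and unfolded protein response genes were higher in vitro for 6 of 33. Asns, asparagine synthetase, stood at 3.84, 4.38 and 0 CPM ex vivo and 170.3, 77.1 and 53.4 CPM in vitro and missed the threshold without KC in vitro 1 or 2 (log2 fold change -4.61, edgeR adjusted p = 0.0542 and -5.38, edgeR adjusted p = 0.0506). Without KC in vitro 1 the list had 2 genes higher in vitro. Monocyte genes were higher ex vivo for 9 of 16 and in vitro for 2, or 1 without KC ex vivo 3, KC in vitro 1 or KC in vitro 2, with Treml4 at 442, 677 and 761 CPM ex vivo and 3.01, 0.727 and 1.46 CPM in vitro (log2 fold change 8.49 ± 0.65, edgeR adjusted p = 0.000275). Retinoid, bile acid and xenobiotic genes were higher ex vivo for 7 of 11 and in vitro for none, among them the transporter Abcc3 (log2 fold change 2.61 ± 0.50, edgeR adjusted p = 0.00728) and the sulfotransferase Sult1a1 (log2 fold change 5.68 ± 0.69, edgeR adjusted p = 0.00149). Lectins, Siglecs and Ms4a genes were higher ex vivo for 9 of 25 and in vitro for 5. Siglece, an inhibitory sialic acid receptor, had 337, 458 and 571 CPM ex vivo and 3.46, 4.07 and 3.49 CPM in vitro (log2 fold change 6.94 ± 0.33, edgeR adjusted p = 7.76e-05). Ms4a7 had 42, 61.5 and 41.7 CPM ex vivo and 690.4, 1417 and 1418 CPM in vitro (log2 fold change -4.61 ± 0.41, edgeR adjusted p = 0.000477). Genes of arginine metabolism and alternative activation were higher ex vivo for 7 of 15 and in vitro for 1, Fc receptors for 2 and 1 of 9, fatty acid synthesis for 4 and 2 of 20, fatty acid oxidation for 2 and 4 of 31, mitochondrially encoded genes for 1 and 0 of 8, and splicing factors for 4 and 0 of 52. Leaving out 1 library moved some of these counts. Alternative activation genes higher ex vivo were 4 without KC in vitro 1 and 3 without KC in vitro 2. Genes of fatty acid synthesis were higher ex vivo for 2 and in vitro for 4 under limma-voom, and those higher ex vivo were 2 without a filter on low counts, 2 without KC ex vivo 2 and 1 when any of the 3 cultures was left out. Those higher in vitro were 1 without KC ex vivo 3 or any of the cultures. Genes of fatty acid oxidation higher in vitro were 2 without KC ex vivo 1, KC in vitro 2 or KC in vitro 3. Mitochondrially encoded genes higher ex vivo were 4 without KC ex vivo 2 or KC in vitro 3, 2 without KC ex vivo 3 and none without KC ex vivo 1, KC in vitro 1 or KC in vitro 2. They were 3 under DESeq2. The Fc receptor higher in vitro was not called without KC ex vivo 2, KC in vitro 2 or KC in vitro 3.

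The genes with the largest differences, taken by a fixed rule on size, average level and separation of the libraries, added several that no list held. Ex vivo these were Adcy4, an adenylate cyclase, with 219.6, 285 and 382 CPM, Pcolce2, an enhancer of procollagen processing, with 109.8, 219.7 and 253 CPM, Adamdec1, a metalloprotease of the ADAM family, with 53.2, 199.8 and 206 CPM, and Dysf, the membrane repair protein dysferlin, with 100.5, 141 and 179 CPM. None of the 4 had a read in the cultures, so they were at least 12081, 7954, 6277 and 5743-fold higher ex vivo. Gbp2b, an interferon-induced GTPase, had 121, 326 and 315 CPM and 1 read in the cultures. Adcy4 and Pcolce2 were lowest in KC ex vivo 1, like Clec4f.

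In vitro the same rule gave Pcp4l1 (chr1:171173262-171196268), which had 141, 151 and 85.6 CPM in the cultures and no read ex vivo (at least 4601-fold higher in vitro). Fcrls, a scavenger receptor known from microglia, stood at 0, 1.1 and 0 CPM ex vivo and 268, 200.3 and 237 CPM in vitro (log2 fold change -9.30 ± 1.35, edgeR adjusted p = 0.00271). Dusp4, a phosphatase of MAP kinases, had 0, 0.391 and 0 CPM ex vivo and 79.2, 56.3 and 79.6 CPM in vitro (log2 fold change -9.03 ± 1.06, edgeR adjusted p = 0.00135). Htr2b, a serotonin receptor, had 0, 0.548 and 0 CPM ex vivo and 74.6, 62.2 and 71.1 CPM in vitro (log2 fold change -8.52 ± 1.14, edgeR adjusted p = 0.00205). Genes usually described in nerve cells or T cells were among them. Npy, neuropeptide Y, had 4.66, 4.65 and 1.73 CPM ex vivo and 310.2, 565 and 309.9 CPM in vitro (log2 fold change -6.75 ± 0.55, edgeR adjusted p = 0.00034). Syngr1, a vesicle protein, had a log2 fold change of -6.55 ± 0.87 (edgeR adjusted p = 0.0020). Cd28, the co-stimulatory receptor of T cells, had 3.7, 1.54 and 2.64 CPM ex vivo and 243, 205 and 311 CPM in vitro (log2 fold change -6.59 ± 0.43, edgeR adjusted p = 0.000182). The T and NK cell list stood at 1.29, 2.81 and 2.29 CPM in these cultures. Emp1, Tox2 and Angptl2 completed the rule, with log2 fold changes of -7.81 ± 1.43, -7.54 ± 1.43 and -6.51 ± 1.38 (edgeR adjusted p = 0.00623, 0.00701 and 0.0102).

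The KC difference was set against the mean of the same differences in MG, PM and AM in a model of all 24 libraries. Of 17408 genes tested there, 1543 (8.86%) differed with KC above the mean and 329 (1.89%) with KC below it, around a median of 0.16 on the log2 scale. The first count was 983 without KC in vitro 1 and 1028 without KC in vitro 2. Above the mean lay 25 of the 29 tested KC identity genes, 16 of 26 complement genes and 23 of 40 interferon and class I genes. Of the 25 tested cholesterol genes none lay above and 1 lay below, and of the 28 glycolysis genes 4 lay above and 3 below. A difference between ex vivo and in vitro was therefore not detected as particular to KCs for most genes of these 2 metabolic lists, although a missed threshold does not show that the populations differed alike. The controls were separate for each population, but the cultures of MG and AM used other growth factors, and AM were kept at atmospheric oxygen in a medium without added glucose.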

How the data were processed

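The deposited table holds raw read counts per gene of 45706 mouse Ensembl genes in 24 libraries, made by the authors from single-read SMARTer v4 and Nextera XT libraries that were trimmed with Trimmomatic and, per the methods of the study, aligned and counted with STAR on mm10. The submitters' processing notes list Trimmomatic 0.36, STAR 2.5.2b and the human build hg19, whereas those methods name later versions of both tools. The identifiers are mouse genes, and which versions were used is not settled here. The libraries do not mark strand, so antisense or overlapping genes were not separated, and near-identical copies may exchange reads. Symbols and positions were taken from GENCODE vM21. KC libraries were filtered (filterByExpr, minimum count 10), scaled by TMM and tested with edgeR 4.0.16 (quasi-likelihood, R 4.3.3) with Benjamini-Hochberg adjustment over 13629 genes. The comparison with the other populations was a contrast over all 24 libraries. limma 3.58.1 and DESeq2 1.42.0 served as alternatives, and the code was tested on simulated data. The 3 libraries a group are described as biological replicates. The libraries and the 48 gene lists were chosen with earlier results of these data known. The text names the 3 markers and genes the study stained, list members with the count of their list, the 12 called genes with the largest fold change in each direction (average log2 CPM over 5, no overlap, a proper symbol) and, for the contrast, the 5 in each direction.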

Additional observations from a re-analysis of the deposited data

Results flagged for a closer look

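Each group held 3 libraries, too few for a search for an outlying one. For 10 genes, the 5 with the strongest difference in each direction by a fixed rule, the ex vivo against in vitro difference of KCs departed from the mean of those in MG, PM and AM. Values are log2 differences with SE from the model of all 24 libraries, and positive differences are higher ex vivo. Fitted values of genes without reads in a group depend on the prior count and are no bound.

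Above the mean, Clec4f departed by 20.45 ± 2.96 (edgeR adjusted p = 0.00021), with differences of 17.56 in KCs, 1.21 in MG, -2.93 in PM and -6.95 in AM. Stab2 departed by 16.86 ± 1.87 (edgeR adjusted p = 1.87e-05), with 11.53 in KCs, -4.38 in MG, -8.39 in PM and -3.23 in AM. Outside KCs, Clec4f reached at most 1.81 CPM and Stab2 at most 2.66 CPM in any library. In AM in vitro the median of Clec4f was 0 and the highest library held 1.27 CPM. The differences of these 2 genes in MG, PM and AM therefore rest on values near the floor, and they enlarge the departures beyond the KC differences. C6 departed by 16.63 ± 5.34 (edgeR adjusted p = 0.043) and C4b by 16.53 ± 2.72 (edgeR adjusted p = 0.000582), where the fitted C4b difference in PM was 6.95. Sorted PM held C4b at 5436 to 8423 CPM, above the 395 to 873 CPM of KC ex vivo, and cultured PM at 38.2 to 63.8 CPM. C4b and Adcy4 had no read in KC in vitro, so their fitted KC differences depend on the prior count. C6 lost its call without KC ex vivo 2, without KC ex vivo 3 and without each of the cultures, at edgeR adjusted p from 0.052 to 0.0675. Adcy4 departed by 15.62 ± 1.66 (edgeR adjusted p = 1.18e-05), with 16.37 in KCs, -0.20 in MG, 4.42 in PM and -1.95 in AM.

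Below the mean, Htra3, a serine protease, departed by -10.68 ± 1.47 (edgeR adjusted p = 0.000132), with -7.81 in KCs, 0.76 in MG, 5.93 in PM and 1.92 in AM. Its mean level was 0 CPM in KC ex vivo and 0.748 CPM in KC in vitro, so the KC difference rests on values near the floor. The means of MG, PM and AM were 14.3, 200 and 30.7 CPM ex vivo and 8.66, 3.25 and 8.06 CPM in vitro. Itga6, the integrin alpha 6 chain, departed by -6.55 ± 0.79 (edgeR adjusted p = 2.34e-05) and Prag1, a pseudokinase, by -5.92 ± 0.63 (edgeR adjusted p = 5.63e-06). Alox5, the 5-lipoxygenase of leukotriene synthesis, departed by -5.64 ± 1.00 (edgeR adjusted p = 0.000816), with -2.27 in KCs, 1.93 in MG, 6.06 in PM and 2.11 in AM. Adam15, a membrane metalloprotease, departed by -4.90 ± 0.44 (edgeR adjusted p = 7.62e-07).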

How the results depend on the processing

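The counts of genes higher ex vivo (2005) and of list members called (381) stayed within 1.5 times of their value under limma-voom, DESeq2, RLE scaling, no filter, a filter of 1 CPM in 3 libraries, a fold change itself above 1.5, all 24 libraries in 1 model and a replicate block. They ran from 1348 to 2133 and from 300 to 434 when 1 library was left out. The genes higher in vitro (1039) rose to 1964 with a fold change itself above 1.5 and ran from 744 to 1449 without 1 library. The KC departures above the mean of the other populations (1543) fell to 983 without KC in vitro 1 and to 1028 without KC in vitro 2, with a range from 983 to 1469. Those below (329) rose to 514 under limma-voom and 863 with a fold change itself above 1.5, with a range from 255 to 417 without 1 KC library. A lower fold threshold admits smaller changes by construction, and for the other shifts the cause was not tested. No gene called both with the main settings and under an alternative changed its direction. Of the 132 called genes named above, 7 lost the call under an alternative that kept all libraries: C1qa, Id1, Ighm and Notch1 with all 24 libraries in 1 model, Ptger4 under limma-voom, RLE scaling and the replicate block, and Ciita and Tnf under the block. Without some library 11 lost it, each named with its result. DESeq2 gave no adjusted p for 3 of the named results. The labels do not say whether sorted and cultured KC libraries with the same replicate number came from the same mice. The deviations of such libraries correlated by 0.013, 0.0037 and 0.053. With 3 libraries a group these values cannot settle whether animals were shared under the same number. With this number as a replicate block, 1632 genes were higher ex vivo, 985 in vitro, 923 above and 279 below the mean of the other populations, 370 list members were called, 1 gene of fatty acid synthesis was higher ex vivo, 9 cell cycle genes were higher in vitro, and the neutrophil list had no call. With 3 libraries a group, genes near 3 reads a library could not be compared.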

Other observations

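Set beside the other populations, Vegfa had means of 277 ± 158 CPM in KC in vitro, 528 ± 363 in MG in vitro, 441 ± 199 in PM in vitro and 65.0 ± 40.2 in AM in vitro (SD, n = 3 each). The sorted cells of all 4 populations held at most 2.24 CPM in any library. AM in vitro, which were kept at atmospheric oxygen, without added glucose and in GM-CSF in place of M-CSF, had the lowest of the 4 cultured means, and the spread of its libraries, 33.1 to 110.2 CPM, lay below that of KC in vitro, 126 to 441 CPM. Oxygen, glucose, growth factor and cell type cannot be told apart in this order. Trem2 stood at 40.2 ± 9.84 CPM in KC ex vivo and 1711 ± 305 CPM in KC in vitro, and at 1157 ± 20.2 CPM in MG ex vivo and 1192 ± 691 CPM in MG in vitro. The level of Trem2 in cultured KCs was thus within the range of the cultured microglia, 399.6 to 1671 CPM, for the lowest library and the middle one, and above it for KC in vitro 2. Trem2 was also higher in culture in PM, at 69.8 ± 13.1 CPM ex vivo and 2000 ± 372 CPM in vitro. In AM it stood at 43.2 ± 4.76 CPM ex vivo and 795 ± 91.0 CPM in vitro. The higher level in culture was thus not particular to KCs. Nr1h3 ranged from 541 to 693 CPM in KC ex vivo, and its highest value in any other group was 118.9 CPM, in PM in vitro. Among the cultures it did not stand out in KCs. It ranged from 21.8 to 50.3 CPM in KC, 44.8 to 118.9 in PM, 45.5 to 71.0 in AM and 7.60 to 20.3 in MG. These values are descriptions without a test.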
